A study of Homo sapiens with 6 samples.

Results

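The genes described here are 10 plasma membrane transporters for cystine, glutamate and neutral or cationic amino acids, namely SLC7A11, SLC3A2, SLC7A5, SLC7A1, SLC7A3, SLC7A6, SLC1A3, SLC1A4, SLC1A5 and SLC38A2. They were taken by name from the 65988 gene identifiers in the count tables. Poly(A) RNA was sequenced from U87MG, an established human glioblastoma cell line, which received vehicle (control, n = 3 libraries) or RSL3 at 2 µM (n = 3 libraries), an inhibitor of the lipid peroxide-reducing enzyme GPX4 and an inducer of ferroptosis. The exposure was 24 h by the study's text, while the sample labels give no time. All libraries come from this 1 line, and the labels give a replicate number without saying whether the replicates were separate cultures, so p-values measure the spread between these libraries, which may be technical.

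Cystine enters cells through system xc-, a pair of proteins in which the light chain SLC7A11 (xCT) exchanges extracellular cystine for intracellular glutamate and the heavy chain SLC3A2 (CD98 heavy chain) carries it to the cell surface. Imported cystine is reduced to cysteine, a building block of glutathione, which GPX4 uses to detoxify lipid peroxides, and block of cystine import is itself a trigger of ferroptosis. SLC3A2 also serves light chains for other amino acids, and SLC1A5 and SLC38A2 bring in glutamine and other neutral amino acids.

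Total counts ranged from 27813462 to 43306335 per library, and 16105 genes passed edgeR's filter on low counts and were tested. Values given as normalized counts are raw counts scaled to the mean library size by edgeR's TMM method. A gene was called higher or lower in RSL3 at a Benjamini-Hochberg adjusted p under 0.05 in edgeR's quasi-likelihood F test over all genes tested, and a positive log2 fold change means more transcript in RSL3-treated cells. Against the cell line label, the summed level of 8 astroglial and glioma markers was 203934 to 210758 normalized counts in control libraries and 186194 to 194750 in RSL3 libraries, with CD44 among those that were lower, and the astroglial marker S100B had at most 1.23 normalized counts in any library. Markers of other lineages were mixed. The immune gene PTPRC and the epithelial gene KRT5 were near 0 and the oligodendrocyte gene MOG had no count, but the neuronal gene SYT1 had 869 to 914 normalized counts in control and 1029 to 1064 in RSL3 libraries, above the glioma markers NES (148 to 210 over the 6 libraries) and GFAP (95.1 to 160). SNAP25 had 143 to 197 in control and 77.9 to 89.9 in RSL3 libraries, MBP had 80 to 105 and 141 to 159, VWF had 60.5 to 87.8 and 17.7 to 42.9, and CSF1R had 90.6 to 110 and 70.6 to 102. The 3 endothelial markers summed to 66.8 to 97.1 normalized counts in control and 29.1 to 50.9 in RSL3 libraries, and the 3 neuronal markers to 1029 to 1116 and 1128 to 1155. The 3 immune markers summed to 91.5 to 110 in control and 73.8 to 103 in RSL3 libraries, and the 3 epithelial markers to 22.1 to 25.9 and 8.05 to 26. The part of these levels in the transporter values was not tested. RNA per cell and number of cells cannot be told apart in bulk libraries.

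The promoter sequences below are shown because the system xc- heavy chain rose, SLC7A5 rose a little, and SLC1A3 and SLC38A2 fell, and because transporter genes are known targets of ATF4 and NRF2, transcription factors that bind amino acid response and antioxidant response elements. They are RefSeq sequences of GRCh38.p14, each 300 bases long, 5′ to 3′ on the strand of the gene, from 250 bases before to 50 bases after an annotated start. The RefSeq promoter table held 15 such windows for 8 of the 10 transporters, and SLC7A11 and SLC7A3 were not matched. Capitals mark matches to TGATGNAAN (amino acid response) and to TGACNNNGC or TGAGNNNGC (antioxidant response), searched on both strands. Where a gene has several annotated starts, its first window in the table is shown, which is 1 of 3 for SLC3A2 and for SLC1A3. The windows lie at chr11:62881449-62881748 (+) for SLC3A2, chr16:87869458-87869757 (-) for SLC7A5, chr5:36596338-36596637 (+) for SLC1A3 and chr12:46372724-46373023 (-) for SLC38A2.
SLC3A2: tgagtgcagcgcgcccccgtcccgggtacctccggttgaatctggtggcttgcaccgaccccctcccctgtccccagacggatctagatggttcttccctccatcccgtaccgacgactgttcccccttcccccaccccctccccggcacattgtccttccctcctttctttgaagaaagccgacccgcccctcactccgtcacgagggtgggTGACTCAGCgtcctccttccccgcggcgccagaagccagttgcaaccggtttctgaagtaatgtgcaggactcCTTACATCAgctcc
SLC7A5: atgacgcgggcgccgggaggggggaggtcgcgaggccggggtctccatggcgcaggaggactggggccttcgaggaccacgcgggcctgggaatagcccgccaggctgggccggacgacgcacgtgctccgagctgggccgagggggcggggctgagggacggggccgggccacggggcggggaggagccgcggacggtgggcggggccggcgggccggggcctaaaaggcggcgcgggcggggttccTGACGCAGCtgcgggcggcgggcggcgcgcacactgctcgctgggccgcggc
SLC1A3: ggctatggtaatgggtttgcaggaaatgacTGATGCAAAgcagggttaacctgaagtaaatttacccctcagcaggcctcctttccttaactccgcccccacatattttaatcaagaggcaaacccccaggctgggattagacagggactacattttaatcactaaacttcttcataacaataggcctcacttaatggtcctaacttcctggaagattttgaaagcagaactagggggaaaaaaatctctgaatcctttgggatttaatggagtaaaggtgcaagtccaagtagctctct
SLC38A2: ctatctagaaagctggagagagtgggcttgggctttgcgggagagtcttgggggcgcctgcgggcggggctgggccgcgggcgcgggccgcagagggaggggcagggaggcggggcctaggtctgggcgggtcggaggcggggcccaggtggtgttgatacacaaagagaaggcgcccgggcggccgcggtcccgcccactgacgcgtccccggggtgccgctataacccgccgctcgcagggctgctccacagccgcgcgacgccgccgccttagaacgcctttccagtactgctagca

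The SLC3A2 window shown held both kinds of match, TGACTCAGC at position -37 from the start and CTTACATCA, a match on the opposite strand, at +37. The SLC7A5 window held TGACGCAGC at -2, the SLC1A3 window shown held TGATGCAAA at -220, and the SLC38A2 window held neither kind of match. Of the windows not shown, the second of SLC1A3 held an antioxidant response match, TGACAAAGC at -196, and the third held none. The second of SLC3A2 also held an antioxidant response match, GCTGGCTCA at -15 on the opposite strand, and the third held none. SLC1A5, which was called higher, held an antioxidant response match in each of 2 windows and an amino acid response match in the third. Over the 15 windows, 5 held an amino acid response match, against 3.61% of the 35116 windows in the RefSeq table, and 9 held an antioxidant response match, against 29.1%. Some genes gave several windows, so these are not independent. By gene, 5 of the 8 matched transporters held an amino acid response match in some window and 7 an antioxidant response match. These counts cannot be set against the shares of windows, since a gene with several windows has more chances of a match. Whether matches are more frequent in these genes than in others was not tested. SLC7A1 and SLC1A4, which were not called, held both kinds too. SLC7A6, also not called, held antioxidant response matches at -197 and -29. A match is a string of letters and not a measured binding site, and the absence of a match says nothing about sequence outside these windows.

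Of the 10 transporters, 9 passed the filter and were tested. SLC7A11, SLC3A2, SLC7A5 and SLC1A5 were called higher (4 of 9, where 12.9% of all genes tested were called higher), SLC1A3 and SLC38A2 were called lower (2 of 9, against 12.7%), and SLC7A1, SLC7A6 and SLC1A4 were not called. In all, 66.7% of the transporters tested were called, against 25.6% of all genes tested. These shares are not like for like, since the transporters were chosen with earlier results of these data known. Most of them also had high counts, where small changes can be called, as SLC1A5 was at 1.06-fold. The control and RSL3 libraries did not overlap for 7 of the 9, against 38.6% of all genes tested. The median log2 fold change was 0.07 over the 9 transporters and -0.0044 over all genes tested.

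**Figure D1:**
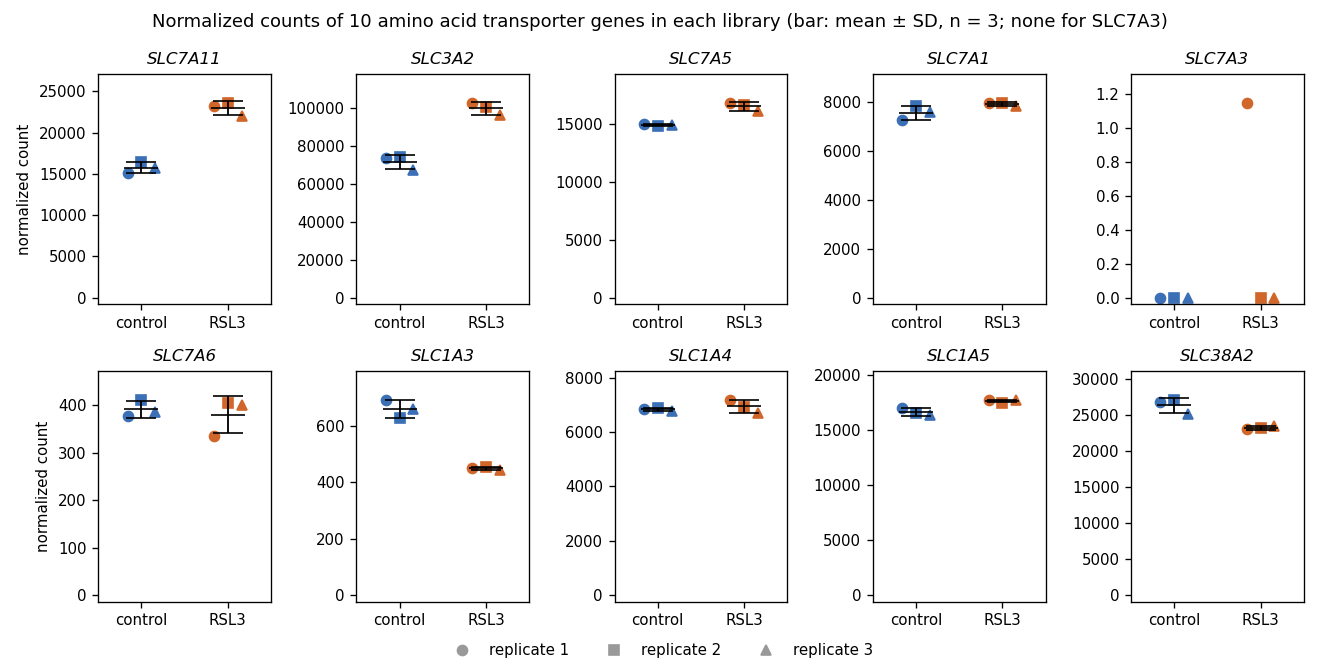
Normalized counts (vertical axes, linear, starting at 0) of the 10 transporters in each of the 3 control and 3 RSL3 libraries; points are libraries and bars the mean ± SD, not drawn for SLC7A3, which had 1 read in all. SLC7A11 and SLC3A2 lie clearly higher and SLC1A3 clearly lower in RSL3, and SLC7A6 and SLC1A4 overlap between the groups.

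Both subunits of system xc- rose. SLC7A11 (ENSG00000151012), the cystine and glutamate exchanger, lies on the minus strand of GRCh38 at chr4:138164097-138242349 and has 12 exons in its canonical transcript. Its normalized counts were 15083, 16470 and 15754 in the control libraries and 23264, 23627 and 22011 in the RSL3 libraries. Every RSL3 library was above every control library. The mean went from 15769 ± 694 to 22968 ± 848 (SD, n = 3 each), which is a 1.46-fold rise and a log2 fold change of 0.54 (SE 0.034, 95% interval 0.47 to 0.61, adjusted p = 2.39e-10 in edgeR). Another gene of the annotation, SLC7A11-AS1, covers 8.97% of its exon bases and had at most 50.9 normalized counts in any library.

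SLC3A2 (ENSG00000168003), the heavy chain, lies at chr11:62856004-62888880 on the plus strand and has 9 exons. Control libraries held 73328, 73837 and 66972 normalized counts, and RSL3 libraries 102569, 100480 and 95911. The groups were far apart compared with the spread within each. From 71379 ± 3825 in control to 99653 ± 3405 in RSL3 (SD, n = 3 each), its level rose 1.4-fold, a log2 fold change of 0.48 (SE 0.033, 95% interval 0.41 to 0.55, adjusted p = 8.35e-10 in edgeR). No other annotated gene shares its exons.

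Among light chains that pair with SLC3A2, the change was unequal. SLC7A5 (LAT1, ENSG00000103257), which imports leucine and other large neutral amino acids, lies at chr16:87830023-87869507 on the minus strand and has 10 exons. It had 14933, 14780 and 14900 normalized counts in control and 16797, 16571 and 16075 in RSL3 libraries. The groups did not overlap, but the step was small, from 14871 ± 80.6 to 16481 ± 369 (SD, n = 3 each), or 1.11-fold. Its log2 fold change was 0.15 (SE 0.028, 95% interval 0.09 to 0.21, adjusted p = 0.000456 in edgeR). The annotation gives it 5.69% shared exon bases, and of its near-identical pseudogenes SLC7A5P2 had no count and SLC7A5P1 had 11.4 to 38.8 normalized counts.

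SLC7A6 (ENSG00000103064, chr16:68264516-68301823, plus strand), which exchanges cationic for neutral amino acids, was scarce. Control libraries held 377, 411 and 386 normalized counts and RSL3 libraries 335, 405 and 400. These overlapped, and the log2 fold change was -0.04 (SE 0.093, 95% interval -0.23 to 0.16, adjusted p = 0.831 in edgeR). Its estimate is uncertain also because other genes, mainly SLC7A6OS, cover 55.6% of its exon bases, and the counting ignored strand. SLC7A6OS had 246 to 297 normalized counts.

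SLC7A8 (LAT2), another light chain for neutral amino acids, is not 1 of the 10 transporters and moved the other way. It had 535, 597 and 633 normalized counts in control and 235, 294 and 311 in RSL3 libraries, a log2 fold change of -1.07 (SE 0.1, adjusted p = 7.16e-08 in edgeR). Its lowest control library was above its highest RSL3 library. SLC7A7, the remaining light chain that was tested, rested on 20.4 to 42.6 normalized counts per library and was not called, and SLC7A10 had no counts.

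Levels of different genes were compared per kilobase of annotated exon, within each library. Of the summed level of the 6 light chains known to pair with SLC3A2, SLC7A11 made up 32.3, 34.4 and 33.2% in control and 40, 40.6 and 39.6% in RSL3 libraries. The share of SLC7A11 therefore went from 33.3% ± 1.04 to 40.1% ± 0.501 (SD, n = 3 each), a difference of 6.77 percentage points. SLC7A5 went from 63.6% ± 1.16 to 58.2% ± 0.519 and SLC7A8 from 2% ± 0.151 to 0.787% ± 0.126. SLC7A6, whose level is uncertain because of its shared exon bases, made up 1.05% ± 0.035 in control and 0.844% ± 0.0981 in RSL3 libraries. The groups did not overlap for the SLC7A11 share, which gave p = 0.1 in a two-sided exact permutation test (adjusted p = 0.15 over 3 within-library values), the smallest p that 3 against 3 libraries allow. Per kilobase of canonical transcript, a scale added after the data were seen, the mean share was 32% in control and 38.8% in RSL3.

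**Figure D2:**
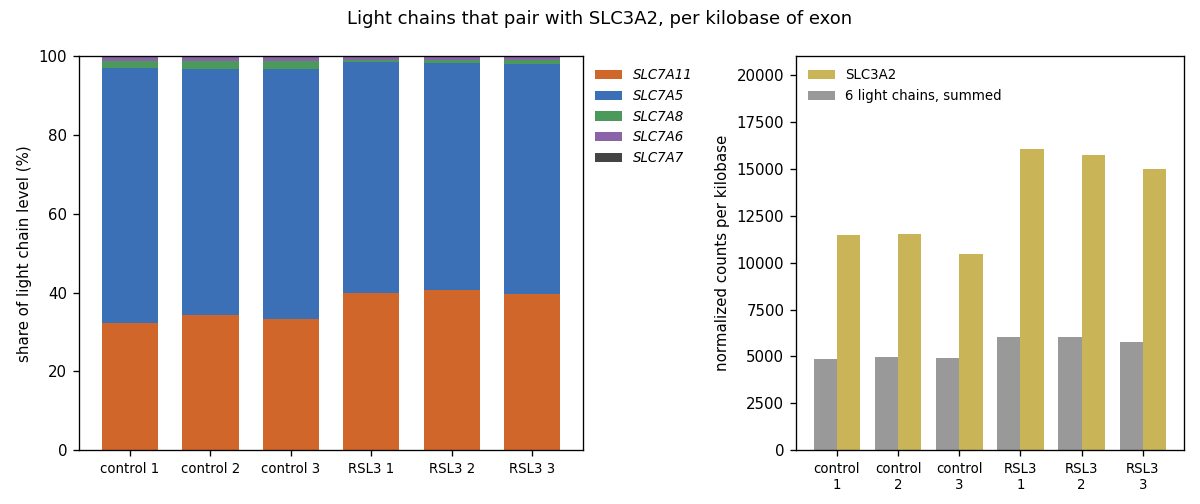
Left, share (percent) of each light chain in the summed light chain level per kilobase of exon in each library; right, normalized counts per kilobase of exon of the heavy chain SLC3A2 and of the 6 light chains summed, in each library, on an axis from 0. The SLC7A11 share is 32.3 to 34.4% in control and 39.6 to 40.6% in RSL3 libraries, and SLC3A2 is 2.13 to 2.66 times the summed light chain level on this scale (6.93 to 8.75 times per kilobase of canonical transcript).

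The ratio of SLC7A11 to SLC7A5 counts, on a log2 scale, was 0.0144, 0.156 and 0.0804 in control and 0.47, 0.512 and 0.453 in RSL3 libraries. It differed by 0.395 between the group means, and the groups did not overlap (exact permutation p = 0.1, two-sided, adjusted p = 0.15). The log2 ratio of SLC7A11 to its heavy chain SLC3A2 was -2.28, -2.16 and -2.09 in control and -2.14, -2.09 and -2.12 in RSL3 libraries. These groups overlapped, and their means differed by 0.0605 (exact permutation p = 0.5, two-sided, adjusted p = 0.5). The difference of the means was 0.00875 without control replicate 1 and 0.106 without control replicate 3. With 3 libraries a group this test cannot give a p under 0.1, so it does not show whether the exchanger and its heavy chain changed alike. The heavy chain level was 2.37, 2.32 and 2.13 times the summed light chain level per kilobase of exon in control and 2.66, 2.6 and 2.6 times in RSL3 libraries. Per kilobase of canonical transcript the same ratio was 7.72, 7.57 and 6.93 in control and 8.75, 8.54 and 8.53 in RSL3 libraries, so its size depends on the gene length used, while RSL3 libraries were above control libraries on both scales.

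The cationic amino acid transporters take up arginine and lysine. SLC7A1 (CAT1, ENSG00000139514, chr13:29509414-29595688, minus strand) had 7272, 7829 and 7588 normalized counts in control and 7969, 7958 and 7845 in RSL3 libraries. Its groups just missed each other, but the log2 fold change of 0.07 (SE 0.032, 95% interval 0.00 to 0.14) did not pass the test (adjusted p = 0.133 in edgeR). It was 0.04 without control replicate 1 (adjusted p = 0.431) and 0.10 without control replicate 2 (adjusted p = 0.0548). SLC7A3 (CAT3, ENSG00000165349, chrX:70925579-70931125, minus strand) had 1 read in RSL3 replicate 1 and none in the other libraries. It was not tested, and a count of 0 allows up to 3 counts, or 0.0693 to 0.108 CPM depending on the library, with counting error only.

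SLC1A3 (EAAT1, also called GLAST, ENSG00000079215) is a sodium-dependent glutamate importer of astrocytes and lies at chr5:36596588-36688334 on the plus strand. It fell, with 692, 628 and 661 normalized counts in control and 450, 456 and 444 in RSL3 libraries. No libraries of the groups overlapped, and RSL3 libraries lay within a narrow range. The mean went from 660 ± 32.5 to 450 ± 5.83 (SD, n = 3 each), which is 0.68 of the control level and a log2 fold change of -0.56 (SE 0.073, 95% interval -0.71 to -0.40, adjusted p = 7.06e-06 in edgeR). The other glutamate importers measured, SLC1A1 and SLC1A2, were not called, with log2 fold changes of -0.24 (adjusted p = 0.0635) and 0.30 (adjusted p = 0.0885), and were named after their values were seen.

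The related transporters for alanine, serine, cysteine and glutamine hardly moved. SLC1A5 (ASCT2, ENSG00000105281, chr19:46774883-46788594, minus strand), a glutamine carrier, had 17070, 16602 and 16372 normalized counts in control and 17732, 17519 and 17740 in RSL3 libraries. It was 1.06-fold higher, from 16682 ± 356 to 17663 ± 125 (SD, n = 3 each), with a log2 fold change of 0.08 (SE 0.028, 95% interval 0.02 to 0.14, adjusted p = 0.0345 in edgeR). This call was lost in 7 of 16 alternative analyses, with adjusted p from 0.056 to 0.115, among them the analyses that left out control replicate 2 or 3 or RSL3 replicate 1, 2 or 3. Other genes cover 23.8% of its exon bases. SLC1A4 (ASCT1, ENSG00000115902, chr2:64988477-65023865, plus strand), which carries serine and alanine, had 6853, 6909 and 6789 normalized counts in control and 7183, 6945 and 6724 in RSL3 libraries. Its groups overlapped, and the log2 fold change was 0.02 (SE 0.032, 95% interval -0.05 to 0.09, adjusted p = 0.702 in edgeR).

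SLC38A2 (SNAT2, ENSG00000134294), a sodium-coupled carrier of small neutral amino acids that cells are known to induce when amino acids run short, lies at chr12:46358188-46372773 on the minus strand. Its normalized counts were 26792, 27016 and 25092 in control and 22950, 23190 and 23478 in RSL3 libraries. All RSL3 libraries were below all control libraries. The mean fell to 0.882 of control, from 26300 ± 1053 to 23206 ± 264 (SD, n = 3 each), with a log2 fold change of -0.18 (SE 0.03, 95% interval -0.24 to -0.12, adjusted p = 0.000109 in edgeR). Its relative SLC38A1 (SNAT1), not 1 of the 10 transporters, went the other way, from 41339 ± 903 to 49634 ± 869 normalized counts, a log2 fold change of 0.26 (adjusted p = 1.79e-07 in edgeR).

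Per kilobase of exon, SLC3A2 had the highest level of the 10 transporters in control cells, at 11167 ± 598 normalized counts per kilobase (SD, n = 3). SLC1A5 followed at 5006 ± 107, SLC38A2 at 4041 ± 162, SLC7A5 at 3122 ± 16.9 and SLC7A11 at 1635 ± 71.9. SLC7A1 (984 ± 36.3) and SLC1A4 (987 ± 8.66) overlapped and could not be ordered on this scale, though per kilobase of canonical transcript they stood apart at 1030 and 1501. SLC7A6 at 51.6 and SLC1A3 at 31.1 were far below them, and SLC7A3 was at 0. The level of SLC7A6 is uncertain, since other genes cover 55.6% of its exon bases and the counting ignored strand. Per kilobase of canonical transcript, SLC1A3 (168) stood above SLC7A6 (62.6), so the order of these last genes depends on the gene length used. In RSL3 libraries SLC3A2 was at 15590 ± 533 and SLC7A11 at 2381 ± 87.9 normalized counts per kilobase of exon, and the order of the first 5 genes was as in control. SLC38A2 (3526 to 3607) and SLC7A5 (3374 to 3526) came close without overlap. Per kilobase of canonical transcript they stood apart, at 4786 to 4896 and 3528 to 3687. SLC7A1 (1031) and SLC1A4 (1001) again overlapped per kilobase of exon, but not per kilobase of canonical transcript (1079 and 1523).

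A list of 52 other amino acid transporters shows the setting of these changes. Of the 28 tested, 9 were higher, 2 were lower and 17 were not called (39.3% called, median log2 fold change 0.09, range -1.07 to 0.97). Over all genes tested, 25.6% were called, 12.9% higher and 12.7% lower. The other 24 were not tested and had at most 18.7 normalized counts in any library, and 7 of them had none. SLC6A6, the taurine transporter, went from 6347 ± 249 to 8361 ± 56.9 normalized counts (log2 fold change 0.40, adjusted p = 1e-08). SLC43A1, a further leucine transporter, went from 287 ± 13 to 480 ± 55.1 (0.74, adjusted p = 6.37e-06). Besides SLC7A8, the lower gene was SLC25A12, the mitochondrial aspartate and glutamate carrier, at 1267 ± 55.8 in control and 919 ± 44.7 in RSL3 libraries (-0.47, adjusted p = 1.77e-06 in edgeR).

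Some transporters of the same list act in lysosomes, and they differed in whether they were called. CTNS, which exports cystine from lysosomes, had 4146, 3963 and 4052 normalized counts in control and 4942, 4550 and 4305 in RSL3 libraries, without overlap (log2 fold change 0.18, adjusted p = 0.00252). MFSD12, required for cysteine import into lysosomes and melanosomes, had 5178, 5325 and 5069 against 6115, 6214 and 6011 (0.24, adjusted p = 1.03e-05), with 23.9% of its exon bases shared with other genes. SLC66A1, which exports cationic amino acids from lysosomes, had 2185, 1995 and 2124 against 2730, 2629 and 2470 (0.31, adjusted p = 1.96e-05). SLC38A9 (-0.05, adjusted p = 0.571), SLC36A1 (0.09, adjusted p = 0.335), SLC38A7 (0.09, adjusted p = 0.07) and SLC36A4 (0.08, adjusted p = 0.307), named after their values were seen, were not called in edgeR.

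**Figure D3:**
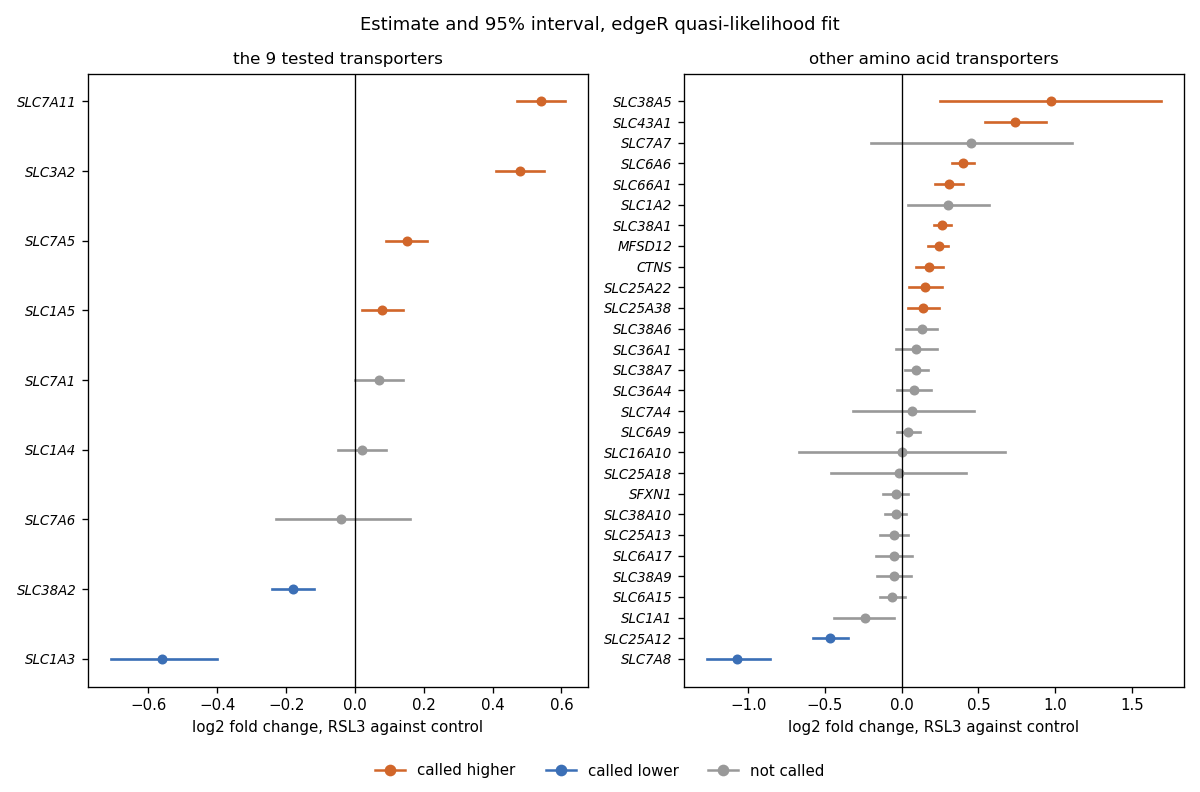
Log2 fold change (RSL3 against control, horizontal axis) with its 95% interval for the 9 transporters and the 28 other amino acid transporters that were tested, from edgeR's quasi-likelihood fit; orange marks genes called higher, blue lower and grey not called. SLC7A11 (0.54) and SLC3A2 (0.48) lead the transporters described, SLC1A3 (-0.56) is lowest among them, and SLC7A8 (-1.07) is lowest in the wider list.

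Of 24 genes that make or use cystine, cysteine, glutathione, glutamate and serine, 23 were tested, 11 were higher, 5 were lower and 7 were not called (69.6% called, median 0.03, range -0.75 to 0.67). The shares over all genes tested were 25.6% called, 12.9% higher and 12.7% lower. GCLM and GCLC, the subunits of the rate-limiting enzyme of glutathione synthesis, had log2 fold changes of 0.67 (from 4090 to 6528 mean normalized counts, adjusted p = 2.89e-11) and 0.45 (from 6036 to 8261, adjusted p = 1.1e-08). TXNRD1, which reduces thioredoxin and can serve in cystine reduction, went from 52342 to 76532 (0.55, adjusted p = 1.41e-10), and TXN, thioredoxin itself, had a log2 fold change of 0.31 (adjusted p = 1.32e-07). GSR, which reduces oxidized glutathione, went from 6668 to 9770 (0.55, adjusted p = 6.46e-10 in edgeR). CHAC1, which by contrast degrades glutathione, went from 2650 to 3363 (0.34, adjusted p = 2.41e-06).

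Lower genes of that list included GLUL, glutamine synthetase, which uses the glutamate that SLC1A3 takes up, at 4661 in control and 3788 mean normalized counts in RSL3 (log2 fold change -0.30, adjusted p = 2.4e-05). PHGDH and PSAT1, the first enzymes of serine synthesis, had log2 fold changes of -0.19 (adjusted p = 4.52e-05) and -0.11 (adjusted p = 0.0086), and GLUD1, glutamate dehydrogenase, of -0.11 (adjusted p = 0.0241). The PSAT1 call was lost without control replicate 2 or RSL3 replicate 2 (log2 fold change -0.09 in each). The GLUD1 call was lost in 4 of 16 alternative analyses (-0.10 to -0.08). They were DESeq2 with 2 surrogate variables and those without control replicate 1 or 2 or RSL3 replicate 1. GSS, which completes glutathione synthesis, had a log2 fold change of -0.12 (adjusted p = 0.0428), but its groups overlapped and its call was lost in 7 of 16 alternative analyses, among them those without control replicate 1 or 3 or RSL3 replicate 2 or 3 (-0.10 to -0.09).

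The 17 genes known to regulate these transporters were all tested, and 7 were higher, 3 were lower and 7 were not called (58.8% called, median 0.04, range -0.39 to 0.33). Among all genes tested, 25.6% were called, 12.9% higher and 12.7% lower. MAFG, a partner of NRF2 on DNA, and KEAP1, which marks NRF2 for degradation, had log2 fold changes of 0.29 (adjusted p = 9.67e-07) and 0.23 (adjusted p = 5.92e-05). ATF3, TRIB3 and CEBPB, genes of the stress response, had 0.33 (adjusted p = 6.75e-06), 0.16 (adjusted p = 0.00173) and 0.13 (adjusted p = 0.00219), and MYC had 0.26 (adjusted p = 0.000221). DDIT3, a further stress response gene of this list named after its values were seen, was not called (0.04, adjusted p = 0.61 in edgeR). The transcript of ATF4 itself fell, with 28981, 28121 and 27762 normalized counts in control and 26253, 25734 and 25640 in RSL3 libraries (log2 fold change -0.13, adjusted p = 0.00121 in edgeR). CD44, an adhesion receptor whose variants are known to hold xCT at the membrane, went from 24701 to 18886 (-0.39, adjusted p = 1.2e-08). EIF2AK3, the kinase PERK, had a log2 fold change of -0.22 (adjusted p = 0.0147), a call lost in 4 of 16 alternative analyses, among them those without control replicate 3 or RSL3 replicate 1 or 2 (-0.20 to -0.16). NFE2L2, the gene of NRF2, named here after its values were seen, had a log2 fold change of 0.01 (adjusted p = 0.816), and 38.4% of its exon bases are shared with other genes. Both NRF2 and ATF4 are regulated largely after transcription, and protein was not measured in these data.

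**Figure D4:**
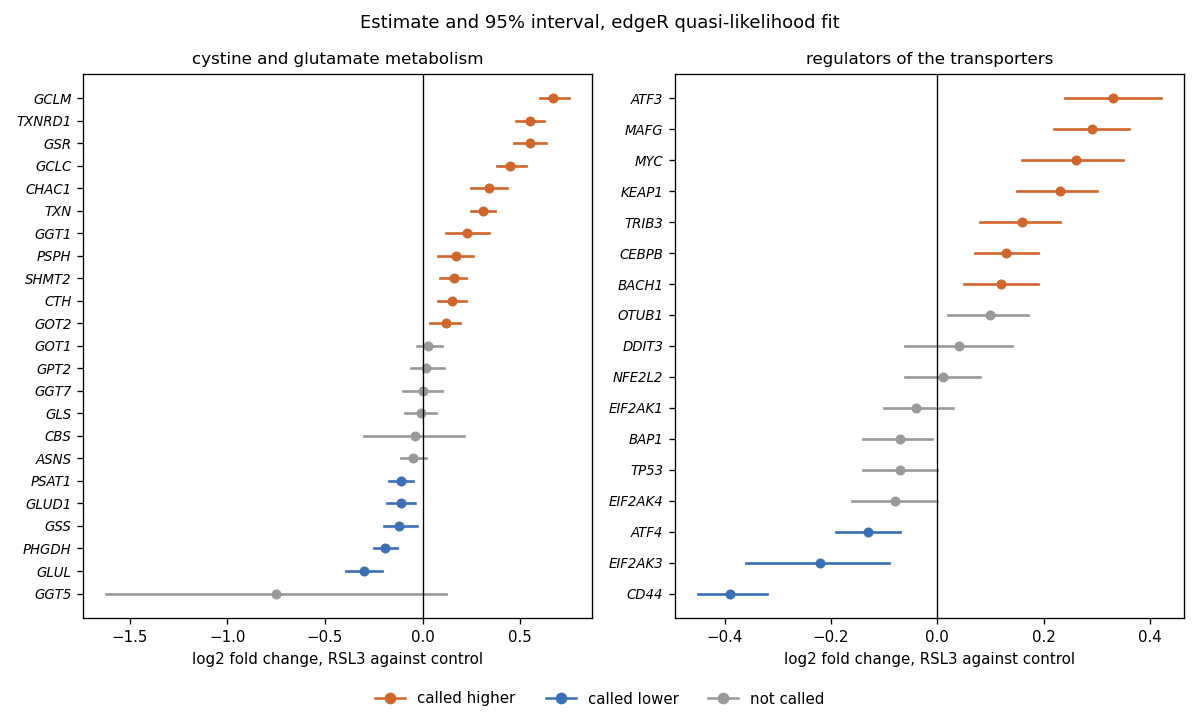
Log2 fold change (RSL3 against control, horizontal axes) with its 95% interval for the tested genes of cystine and glutamate metabolism (left) and of transporter regulation (right), from edgeR's quasi-likelihood fit; orange marks genes called higher, blue lower and grey not called. GCLM (0.67), TXNRD1 and GSR (0.55 each) lead on the left, and CD44 (-0.39) is lowest on the right.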

How the data were processed

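Poly(A) RNA of U87MG cells given vehicle (3 libraries) or RSL3 (3 libraries) was sequenced. The authors trimmed reads (Trimmomatic 0.36, Fastp), mapped the pairs to GRCh38.p4 (HISAT2) and used HTSeq 0.6.1p1, unstranded, to count exonic reads. The values the authors deposited are raw counts per Ensembl gene. The annotation release used for counting is not given in the sources used here.

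Counts were tested in R 4.3.3 with edgeR 4.0.16 (filterByExpr at a minimum of 10, TMM, quasi-likelihood F test, no covariates, Benjamini-Hochberg over 16105 genes). The SE is the size of the log2 fold change over the square root of F. Positions, exon lengths and shared exon bases come from GENCODE v44 on GRCh38, which may differ from the authors' annotation. The 3 within-library values were compared by exact permutation tests. Scripts were tested on simulated data.

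The 10 transporters and the lists were chosen with earlier results of these data known. By rule the text names all 10, and in each of the 3 lists up to 6 genes per direction with the smallest p, plus SLC7A8 and SLC38A1. Alternatives were other scalings (DESeq2's size factors, total counts, upper quartile), other filters, DESeq2 1.42.0 with 0, 1 or 2 surrogate variables (sva 3.50.0), edgeR with 1, the replicate number as a block, each library left out, and an adjusted p under 0.01. The study used DESeq2 after surrogate variable analysis. A result that needs an item withheld for evaluation is not reported here.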

Additional observations from a re-analysis of the deposited data

How the results depend on the processing

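Of the 9 transporters tested, 6 kept their direction and side of the threshold in all 16 alternatives, among them SLC7A11 (log2 fold change 0.51 to 0.58), SLC3A2 (0.44 to 0.51), SLC7A5 (0.13 to 0.17), SLC1A3 (-0.59 to -0.52) and SLC38A2 (-0.21 to -0.16). The call of SLC1A5 was lost with upper quartile scaling (adjusted p = 0.0783), with DESeq2 and 2 surrogate variables (0.0871), and without control replicate 2 (0.0752) or 3 (0.09) or RSL3 replicate 1 (0.115), 2 (0.0855) or 3 (0.056). The values of SLC7A6 ranged from -0.08 to 0.05 when 1 library was left out, with 0.00089 without control replicate 2 and 0.05 without RSL3 replicate 1, and those of SLC1A4 from -0.0029, without RSL3 replicate 1, to 0.05; neither was called. The count of all genes called was 2268 with DESeq2 and 2 surrogate variables and 2691 at an adjusted p under 0.01, and metabolism genes called lower were 3 in each of these and 3 to 5 when 1 library was left out. The causes were not tested. Correlations of same-numbered libraries' deviations from their group means were 0.0222, 0.0273 and 0.0745, so the numbers were not taken to pair the samples; with the replicate number as a block 4633 genes were called, and of the transporters 4 were higher and 2 lower, as without it. RSL3 replicate 1 correlated slightly better with control replicate 2 (0.0242) than with its own number (0.0222). The other differently numbered pairs had negative correlations, from -0.0514 to -0.00228, and the main fit without the block called 4123 genes. Weak pairing by number was therefore not excluded. Over 37 named genes, 30 kept direction and call in all 16 alternatives. Low counts limit SLC7A3, which was not detectable beyond 1 read, and SLC7A7.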
